A study of Homo sapiens with 12 samples.

Results

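N4-acetylcytidine (ac4C) sites were examined in the transcripts of 9 genes that encode 2 families of DNA-binding proteins, the 4 nuclear factor I genes NFIA, NFIB, NFIC and NFIX and the 5 genes for nuclear factors of activated T cells NFATC1, NFATC2, NFATC3, NFATC4 and NFAT5. The genes were taken by name from the deposited site lists, and 7 of the 9 held a called site, among 10252 genes with a site in any list. They held 100 of the sites in the 6 lists together. The cells were HK-2, a human cell line derived from renal tubular epithelium, and the title of the series concerns renal fibrosis. In ac4C-RIP-seq, fragments of total RNA that an ac4C antibody binds (IP) are sequenced beside the starting RNA (input). The tested cells carry the genotype label NAT10 knockout (KO), although the series text speaks of a knockdown, and the other cells are the wild-type control (WT). NAT10 is the acetyltransferase that writes ac4C. Each genotype had 3 IP libraries with their 3 inputs, 12 libraries in all, and every IP with its input gave 1 list of sites. The labels give no treatment, and neither how NAT10 was disrupted nor whether a clone was used. They do not say that replicates were separate cultures, so the spread between lists may be technical.

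The NFI proteins bind DNA as dimers through a conserved amino-terminal domain, and their carboxy-terminal parts differ between genes and splice forms and act in activation or repression. The NFATC proteins are held in the cytoplasm by phosphorylation. A rise of calcium activates the phosphatase calcineurin, which removes the phosphates and lets the proteins enter the nucleus. NFAT5 shares their DNA-binding fold but is not controlled by calcineurin, and in the kidney it is known as the factor that drives osmoprotective genes in hypertonic surroundings.

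The genes were chosen by their family and selected on the numbers and folds of sites in the same lists, since NFIB and NFATC1 were known as genes of high fold with sites in KO lists alone. The numbers of sites, their positions and their folds are therefore given as a description with no test. A difference between genotypes is called free of overlap where every KO list lies above, or every KO list below, all WT lists. The fold is the authors' enrichment of IP over input for a single site, and it was at least 2 in every list. It describes a site within its own list. A list holds no read counts, so depth is unknown and a site's value has no interval. A list also holds no transcript level: for a gene with no site, little RNA and little enrichment cannot be told apart, nor, in a bulk sample, fewer cells with the transcript and less RNA per cell.

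The KO lists held 13818, 17872 and 19136 sites and the WT lists 17541, 17107 and 15289. The median fold lay between 7.03 and 7.80 in KO and between 7.57 and 8.32 in WT lists. The authors' false discovery rate exceeded 50% for 43.2% to 68.1% of KO sites and for 91.9% to 92.8% of WT sites, and no site in any list was under 5%. The transcript of NAT10 held 2, 5 and 9 sites in the KO lists and 11, 11 and 8 in the WT lists, with overlap between genotypes. Of 15 markers of tubular epithelium, among them KRT8, PAX8 and ANPEP, 12 held a site, whereas EPCAM, PAX2 and AQP1 held none. No site was listed for any of 3 podocyte, 4 endothelial, 4 leukocyte and 3 loop or distal tubule markers. PDGFRB and COL1A1, of 3 mesangial or fibroblast markers, held sites in all 6 lists. A site shows that a transcript was present, not its level.

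Sites in the 9 genes were more numerous in KO lists. NFIB and NFATC1 were known to have sites in KO lists alone when the genes were chosen, so this is a description. The KO lists held 20, 18 and 23 sites in these genes and the WT lists 13, 14 and 12, a mean of 20.3 ± 2.52 against 13 ± 1 (SD, n = 3 each). All KO lists lay above all WT lists. The difference for the 9 genes together was 7.33 sites per list, of which NFIB gave 5.33 and NFATC1 gave 2. The separation thus rests on genes known to be KO-only when chosen, and nothing is read from it about the 2 families. The 4 NFI genes together held 15, 14 and 19 sites in KO and 11, 12 and 10 in WT lists, a difference of 5 sites per list. The 5 NFAT genes together held 5, 4 and 4 in KO and 2, 2 and 2 in WT lists, a difference of 2.33. The sites covered 7304, 7247 and 7363 bases in KO lists and 3960, 3423 and 3347 in WT lists. The median site in the 9 genes was shorter in KO, with 168, 156 and 161 bases against 201, 193 and 193. This did not hold for the NFAT genes alone, with 429, 475 and 286.5 bases in KO and 240.5, 202 and 305 in WT lists. In the whole lists the median site was longer in KO, with 178, 171 and 172 bases against 162, 163 and 168. NFIB accounted for more than the whole NFI difference, since its own difference was 5.33 sites per list. Among the NFAT genes, the difference was 2 for NFATC1, 0.667 each for NFATC2 and NFATC3, and -1 for NFAT5.

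Of the 9 genes, NFIB and NFATC1 had more sites in KO lists without overlap and NFAT5 had more in WT lists without overlap. Over all 10252 genes with a site, 23.7% had more sites in KO lists without overlap and 23.1% had more in WT lists without overlap. The selection used this contrast, so nothing is read from the comparison of these shares. NFIC, NFIX, NFATC2 and NFATC3 overlapped between genotypes, and NFIA and NFATC4 had no site in any list. Over the 7 genes with a site the median difference of KO minus WT was 0.667 sites, and over all genes with a site it was 0.

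**Figure D1:**
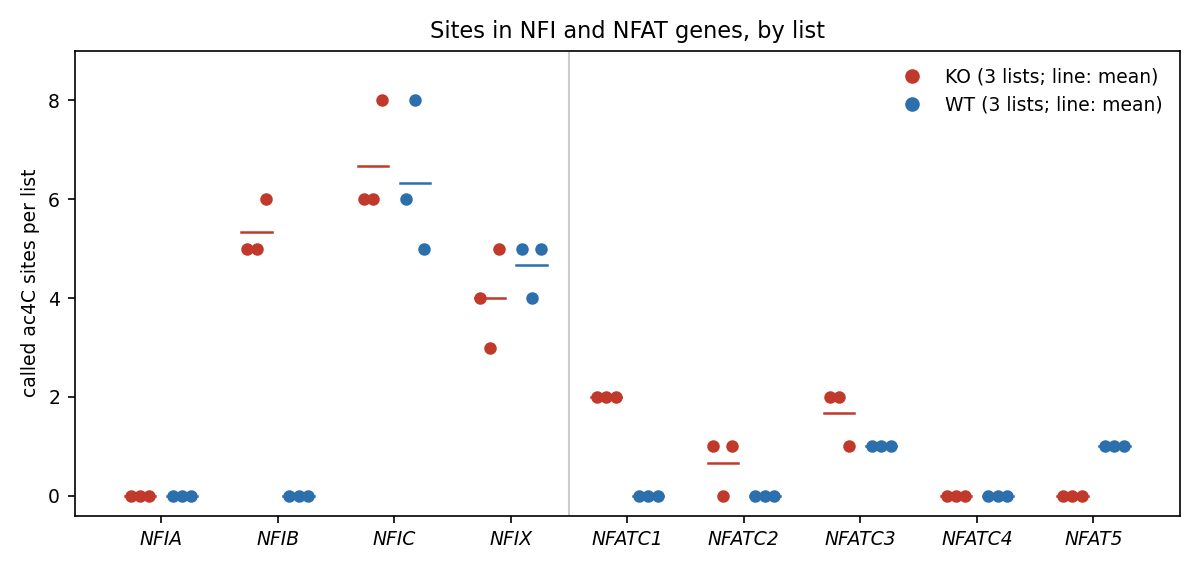
The number of called ac4C sites in each of the 9 genes, 1 point per list, with KO to the left of WT for each gene and a line at the mean of 3 lists. NFIB and NFATC1 had points above 0 in KO alone and NFAT5 in WT alone, while the points of NFIC and NFIX overlapped.

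NFIB (GeneID 4781, chromosome 9), an NFI factor known for its part in lung and brain development, held 5, 5 and 6 sites in KO lists and none in any WT list. Its sites fell into 6 regions, where a region joins sites of different lists that overlap by at least 1 base. 4 of the regions, all in the coding sequence (CDS), held a site in every KO list. Coordinates are given as in the files and are not those of GRCh38: all sites of NFIX, NFATC1 and NFATC2 lay outside the span of their gene in that build, though on the right chromosome.

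The strongest region of NFIB was one of the coding regions, from 14146688 to 14146763. It had folds of 1356, 2955 and 2172 in KO replicates 1, 2 and 3. These were the sites of rank 15, 2 and 6 by fold in their lists. A second region of high fold lay further 3′, from 14120439 to 14120623, with identical edges in the 3 lists and folds of 415, 1052 and 847. Both stood above the 99th percentile of fold of their lists, which was 272, 221 and 196.

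The other NFIB regions were weaker. The region from 14125631 to 14125765 had folds of 36.5, 25.3 and 36.9 in KO replicates 1, 2 and 3, and the last coding region, from 14116244 to 14116345, had 74.7, 56.0 and 51.9. That last region is annotated on NM_001190737, and the other sites on NM_005596, so NFIB sites were assigned to more than 1 transcript form. Toward the 5′ end the folds were below the list medians. A start codon region, from 14313481 to 14313641, was called in KO replicates 1 and 3 with folds of 5.49 and 6.79. A CDS region from 14306988 to 14307519 was called in KO replicates 2 and 3 with folds of 3.90 and 5.7. The false discovery rate of these 4 weak sites was between 49.1% and 99.7%. That of the 12 sites in the other NFIB regions was between 11.3% and 23.3%. Within NFIB, the folds above the list median were those of the 4 downstream coding regions.

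Sites in every KO list and no WT list were found in 15.0% of all genes with a site, and sites in every WT list and no KO list in 11.8%. Among all genes, 12 had no WT site and at least 5 sites in every KO list, NFIB included, and 11 had no WT site and a fold over 1000 in a KO list. No other gene had the same 6 numbers of sites as NFIB. The nearest by Euclidean distance over the 6 lists were ACVR1, FARS2 and RANBP10 at a distance of 1, and COL12A1 and DGKE at 1.41. RANBP10 held 5, 5 and 6 sites in KO lists and 0, 1 and 0 in WT lists.

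NFIC (GeneID 4782, chromosome 19), an NFI factor required for tooth root formation in mice, carried the most sites of the 9 genes. It held 6, 6 and 8 sites in KO and 6, 8 and 5 in WT lists, a mean of 6.67 ± 1.15 against 6.33 ± 1.53 (SD, n = 3 each). The difference of 0.333 was smaller than the spread and changed sign without KO replicate 3 or without WT replicate 3, to -0.333 in each case. The similar numbers went with different positions. Of the 12 NFIC regions, 3 held a site in every KO list and no WT list, 1 in every WT list and no KO list, and 3 in all 6 lists.

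The KO side of NFIC lay at both ends of the transcript. A pair of start codon regions, annotated on different transcript forms, were called in all KO lists and in no WT list. The first, from 3359624 to 3359683 on NM_205843, had folds of 8.09, 9.47 and 8.21 in KO replicates 1, 2 and 3. The second, from 3366565 to 3366664 on NM_005597, had 19.0, 16.5 and 34.2. A 3′ UTR region from 3463612 to 3464796 had the highest NFIC folds of the KO lists, with 85.7, 98.7 and 100.4. These 3 sites were between 1066 and 1184 bases long.

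The NFIC region with a site in every WT list and no KO list was coding. This region, from 3452480 to 3452664, had folds of 159, 175 and 235 in WT replicates 1, 2 and 3, each within the top 2.39% of its list. A later 3′ UTR region, from 3467121 to 3468165, was called in every WT list, with folds of 8.49, 7.68 and 7.10, and in KO replicate 3, as a shorter site with a fold of 2.33. A stop codon region was called in WT replicates 1 and 2 alone, with folds of 4.35 and 4.28. The other 3 NFIC regions were each called in a single list, with folds between 2.38 and 7.86.

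The 3 NFIC regions of all 6 lists were coding and had edges that were repeated between lists. The region from 3381710 to 3382241 had the same start and end in all 6 lists, with folds of 6.89, 14.2 and 12.8 in KO and 20.0, 23.3 and 10.02 in WT lists. The next, ending at 3434398, was 110 bases long in every KO list and 124 in every WT list. Its folds were 28.3, 24.2 and 30.7 in KO and 8.63, 3.91 and 7.50 in WT lists. The last, from 3449012 to 3449137, had folds of 53.1, 27.2 and 40.5 in KO and 124, 150 and 205 in WT lists. By rank within the list, this last region stood in the top 6.24% to 10.46% of KO lists and in the top 2.52% to 2.67% of WT lists.

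NFIX (GeneID 4784, chromosome 19), a factor of muscle and nervous system development, held 4, 3 and 5 sites in KO and 5, 4 and 5 in WT lists, with overlap. Its mean was 4 ± 1 in KO and 4.67 ± 0.577 in WT lists (SD, n = 3 each). As in NFIC, the numbers were close and some positions were not. A coding region from 13183861 to 13183923 was called in every KO list, with folds of 32.9, 26.8 and 30.0, and in no WT list. The neighbouring coding region, from 13186409 to 13186485, was called in every WT list, with folds of 12.5, 15.2 and 15.8, and in no KO list. Both had identical edges in their 3 lists.

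A stop codon and a 3′ UTR region of NFIX were called in all 6 lists. The stop codon site, ending at 13201204, was 92 bases long in every KO list and 65 in every WT list, with folds of 21.1, 9.88 and 15.9 in KO and 17.3, 14.5 and 12.6 in WT lists. In the 3′ UTR the KO lists had 1 broad site each, of 1983, 2288 and 1829 bases, with folds of 16.3, 18.7 and 16.7. The WT lists had a site of 261 bases there, with folds of 6.35, 4.67 and 6.65, and WT replicate 1 a second one of 511 bases. A coding region from 13192494 to 13192669 was called in every WT list and in KO replicate 1, with folds of 4.42 in KO and of 4.28, 6.25 and 7.38 in WT. The remaining 3 NFIX regions were each called in a single list.

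**Figure D2:**
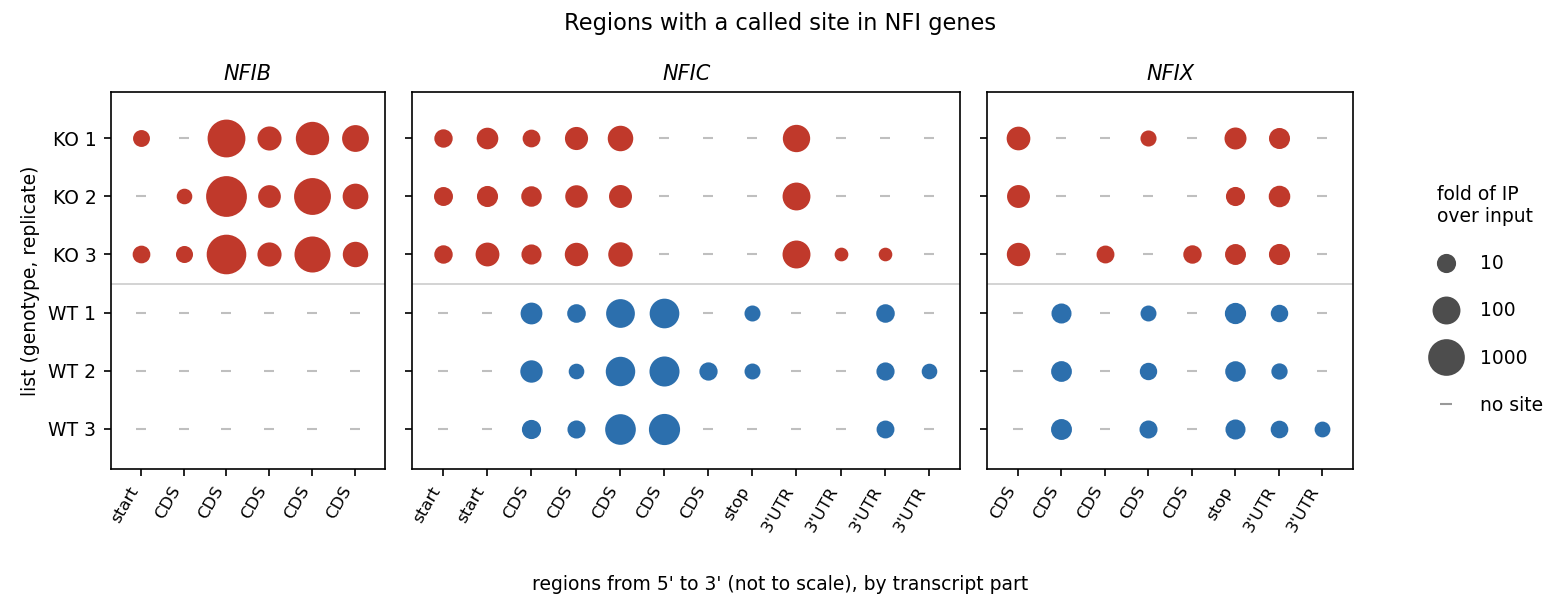
Regions with a called site in NFIB, NFIC and NFIX, ordered from 5′ to 3′ along the gene and not to scale, with 1 row per list and KO above WT. The size of a point grows with the authors' fold, and a dash marks no site: NFIB points fill KO rows alone, while NFIC and NFIX have points of both genotypes at partly different regions.

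Some NFI sites had the same length in different genes. A coding site of 185 bases was called in NFIB in every KO list and in NFIC in every WT list, on opposite sides of the genotype comparison. A coding site of 532 bases was called in NFIC in all 6 lists and in NFIB in KO replicate 3. Whether the edges of these sites follow exons was not examined, since no annotation of the files' build was used.

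NFATC1 (GeneID 4772, chromosome 18), a calcineurin-controlled factor known from T cells, heart valves and osteoclasts, held 2 sites in every KO list and none in any WT list. The coding site, from 77170861 to 77171501, had identical edges and folds of 1214, 858 and 849 in KO replicates 1, 2 and 3, at rank 19, 45 and 40 of their lists. The 3′ UTR site, from 77288819 to 77289089, had folds of 48.5, 57.9 and 34.6. The false discovery rate of these 6 sites was between 11.3% and 17.2%, close to the lowest of the KO lists. Another 194 genes held exactly 2 sites in each KO list and none in WT lists, of which ABCB10, AGAP5, AGAP9, AGFG2 and AKTIP are the first by alphabet.

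NFATC2 (GeneID 4773, chromosome 20), the other classical T cell member, had a single 3′ UTR region, from 50007372 to 50007626. It was called in KO replicates 1 and 3, with folds of 8.48 and 8.21, and in neither KO replicate 2 nor any WT list. These folds were near the medians of their lists, and the false discovery rates were 93.7% and 56.5%.

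NFATC3 (GeneID 4775, chromosome 16), a member expressed in many tissues, had sites in all 6 lists but no region shared between genotypes. It held 2, 2 and 1 sites in KO lists and 1 in each WT list. A stop codon region from 68225264 to 68225692, annotated on the transcript uc010vkr.2, had folds of 42.8, 27.4 and 35.6 in KO replicates 1, 2 and 3 and no WT site. A 3′ UTR region from 68261905 to 68262105, annotated on NM_004555, had identical edges and folds of 3.84, 7.34 and 6.17 in WT replicates 1, 2 and 3 and no KO site. The false discovery rates of these WT sites were 62.2%, 53.8% and 59.3%, and those of the stop codon sites 14.1%, 16.1% and 11.3%. A coding region was called in KO replicates 1 and 2 with folds of 4.05 and 3.56 and a false discovery rate of 100%. The strongest KO site and the WT site were thus annotated on different transcript forms.

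NFAT5 (GeneID 10725, chromosome 16), the tonicity-responsive member, was the only one of the 9 genes with sites in WT lists alone. It held 1 start codon site in each WT list, from 69599869 to 69600277 at its widest, and none in any KO list. The folds were 11.02, 13.1 and 11.5 in WT replicates 1, 2 and 3, within the top 27.4% to 34.8% of their lists. The false discovery rates of these sites were 59.1%, 54.2% and 70.2%. The site was 280, 203 and 409 bases long, with a shared end and different starts. In 678 other genes every WT list had 1 site and every KO list none; A4GALT, ABCE1, ABHD11, ABHD17B and ABHD18 are the first of them by alphabet. NFATC4, a calcineurin-controlled member, and NFIA, which like NFIB is known from brain development, had no site in any list.

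**Figure D3:**
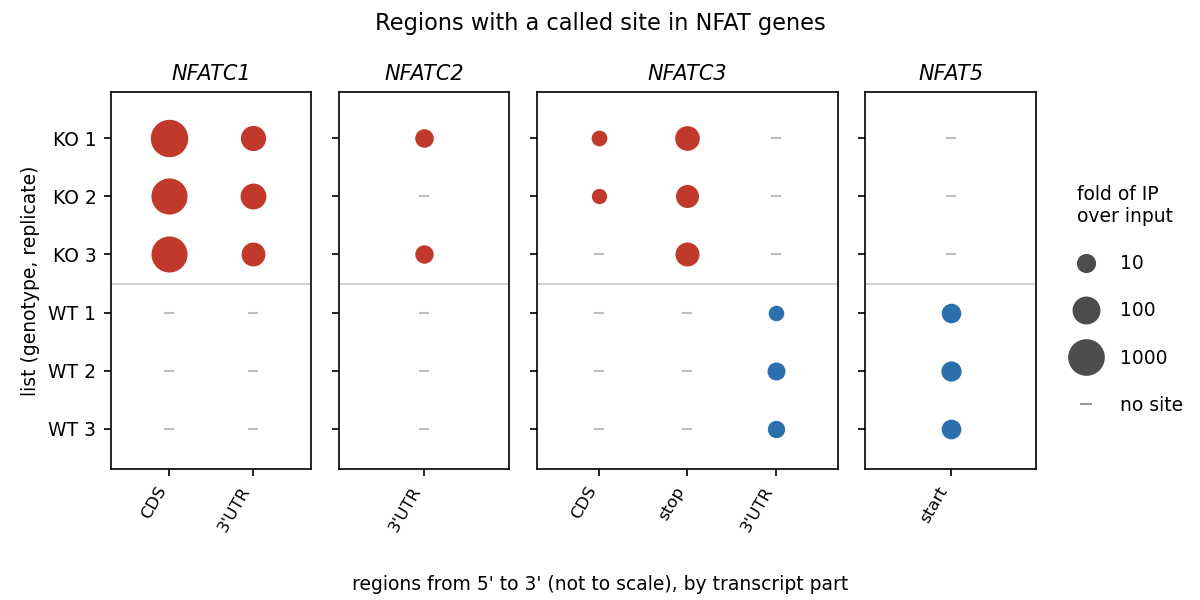
Regions with a called site in NFATC1, NFATC2, NFATC3 and NFAT5, drawn as for the NFI genes, with KO rows above WT rows. No region has points of both genotypes: those of NFATC1 and NFATC2 lie in KO rows, that of NFAT5 in WT rows, and NFATC3 has KO and WT points at different regions.

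Over the 7 genes with a site there were 33 regions. Of these, 11 held a site in every KO list and no WT list, 4 in every WT list and no KO list, and 5 in all 6 lists. Over all 35919 regions of the 6 lists the shares were 20.9%, 21.8% and 8.07%, which correspond to 33.3%, 12.1% and 15.2% of the regions in these genes. NFIB and NFATC1, known to be KO-only when the genes were chosen, held 6 of the 11, so the shares are a description. The 5 regions of all lists were in NFIC and NFIX. No NFAT gene had a region with a site of both genotypes.

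By part of the transcript, the sites of these genes were placed more often in the 3′ UTR than those of all genes. The 3′ UTR held 13 of 61 KO sites (21.3%) and 12 of 39 WT sites (30.8%), where all genes had 8.77% of KO and 9.95% of WT sites there. The coding sequence held 34 KO sites (55.7%) and 19 WT sites (48.7%), where all genes had 56.2% of KO and 56.6% of WT sites. No site in these genes was annotated to the 5′ UTR, which held 7.09% of KO and 6.10% of WT sites of all genes. Start codon sites of NFI genes numbered 8 in KO and 0 in WT lists, and those of NFAT genes 0 in KO and 3 in WT lists. Together they made up 13.1% of KO and 7.69% of WT sites in these genes, where all genes had 14.6% and 13.7%. A region called in several lists counts in each of them, so the start codon numbers rest on 4 regions, 2 in NFIC and 1 each in NFIB and NFAT5. The 3′ UTR sites likewise repeat a few regions of NFIC, NFIX, NFATC1, NFATC2 and NFATC3, and are not independent. A 3′ UTR region of NFIX held 2 sites in WT replicate 1.

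Folds in these genes were higher in KO lists than is typical for a site. The median fold over the sites in these genes was 30.6, 26.1 and 30.0 in KO replicates 1, 2 and 3, against list medians of 7.80, 7.03 and 7.23. In WT replicates 1, 2 and 3 it was 8.63, 7.77 and 8.76, against list medians of 7.57, 7.68 and 8.32. The value 3100 of the score, which is 10 times the negative log10 of the p-value and is shared by many strong sites, was given to 10 of 20, 6 of 18 and 6 of 23 KO sites in these genes. In their whole lists it was given to 15.7%, 10.1% and 7.88% of sites. Among the 13, 14 and 12 WT sites it was given to 2 in each list, all in NFIC, and in the whole WT lists to 6.38%, 6.58% and 6.65% of sites. The share was thus above that of the whole list in all 6 lists. The genes were selected on folds of these same lists, with NFIB and NFATC1 known for high folds in KO lists. Nothing is therefore read from the comparison of folds and scores with whole lists.

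**Figure D4:**
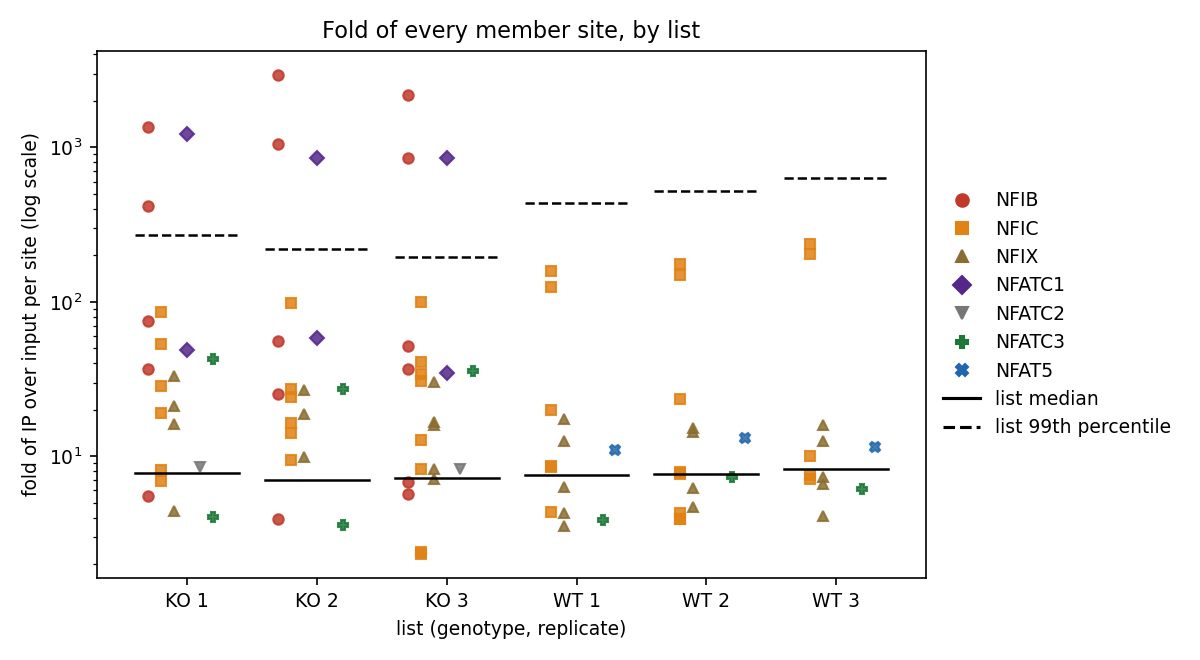
The authors' fold of IP over input for each site in the 7 genes, by list, on a log axis, with KO lists left of WT lists. Solid lines mark the median and broken lines the 99th percentile of all sites of the list: NFIB and NFATC1 points exceed the broken line in each KO list, and no point exceeds it in a WT list. The broken line is higher in WT, at 437, 520 and 637 in WT replicates 1, 2 and 3 against 272, 221 and 196 in KO replicates 1, 2 and 3.

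The pathway that controls the NFATC proteins held sites of both genotypes. Of 19 genes of calcineurin and its regulators, 13 held a site. Of these 13, 7 held one in all 6 lists (53.8%), against 38.9% of the 10252 genes with a site. PPP3CB, a catalytic subunit of calcineurin, held 3, 4 and 4 sites in KO and 2, 2 and 1 in WT lists. HOMER2, a scaffold protein that competes with calcineurin for NFAT, held 3 in each KO list and 2, 1 and 0 in WT lists. AKAP5, which anchors calcineurin near calcium channels, held no KO site and 1 site in each WT list. These 3 of the 13 genes with a site (23.1%) were free of overlap, in either direction, against 46.8% of all genes with a site. PPP3CA, the other widely expressed catalytic subunit, held 4, 5 and 5 against 5, 6 and 4, and RCAN1, a calcineurin inhibitor and NFAT target, 1 in every list. Among 12 kinases linked to the control of NFAT proteins, 11 held a site, and 4 of these (36.4%) held one in all 6 lists. None of these 11 was free of overlap, beside the same 46.8% over all genes. GSK3B, for example, held 3, 5 and 3 sites in KO and 3, 1 and 1 in WT lists.

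Of 13 genes of store-operated calcium entry, 12 held a site and 5 of these (41.7%) were free of overlap, near the 46.8% over all genes. Sites in all 6 lists were held by 8 of the 12 (66.7%), against 38.9% of all genes with a site. STIM1, the calcium sensor of the endoplasmic reticulum, held 5, 6 and 8 sites in KO and 4 in each WT list. ITPR1, an inositol trisphosphate receptor, held 3, 6 and 7 in KO and 1, 1 and 0 in WT lists. Its paralogue ITPR3 lay on the other side, with 4, 9 and 10 in KO and 18, 18 and 16 in WT lists. ORAI2, a channel subunit, held 0, 1 and 2 against 4, 3 and 3, and the phospholipase gene PLCG2 1 in each KO list against 3 in each WT list. The median difference over the 12 genes was -0.5 sites, against 0 over all genes with a site.

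Of 10 osmoprotective genes linked to NFAT5, 4 held a site, and 3 of these were free of overlap. Over all genes with a site the share was 46.8%, and 4 genes are too few to compare with it. AKR1B1, the aldose reductase that makes sorbitol, held no KO site and 1 site in each WT list, as NFAT5 did. SLC6A6, the taurine transporter, held 2 sites in each KO list and 1 in each WT list, and the chaperone gene HSPA1B 1 in each KO list and none in WT lists. HSPA1B has a near-identical copy, so its sites are uncertain. Of 14 other genes known as NFAT targets, 4 held a site and 3 of these were free of overlap, beside the same 46.8% over all genes. These 4 genes are likewise too few for a comparison. TNF held 1 in each KO list and none in WT lists. The cell cycle genes CCND1 and MYC lay on the WT side, CCND1 with 1 in each KO list against 2, 3 and 4, and MYC with none in KO lists against 1, 2 and 1.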

How the data were processed

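The 6 deposited lists, 1 per pair of IP and input and not pooled, hold ac4C sites in messenger RNA. Per the submitters' processing notes, cutadapt 1.9.3, HISAT2 2.0.4 and hg38 were used, with no role stated. The build hg38 is GRCh38, so these notes conflict with the deposited coordinates, which are not those of that build. Per the file headers, the peak caller was MACS, and its version was not given in the sources used here. The deposited score is 10 times the negative log10 of the p-value, the fold is the authors' ratio of IP over input, and each site has the authors' false discovery rate in percent. Per the file headers, starts, ends and lengths are other deposited values; starts count from 0 and are printed 1 higher.

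In KO replicate 1 coordinates and genes stood in different row orders. They were rejoined on equal score and length, then by chromosome (13344 of 13818 rows). For 2 rows of these genes, in NFIB and NFIC, the candidate overlapping a site of the same gene in another list was taken. Of the 11731 rows paired by score and length alone, 99.9% lay on the gene's chromosome, which that step did not use; tied rows have no such check. Across lists, 17 empty rows were not analysed here.

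Symbols were updated through the GeneID with RefSeq for GRCh38.p14, which also gave strands except for NFAT5. Tools were Python 3.11.15 and pandas 2.3.3. All 9 genes are named; of the pathway lists, every gene without overlap is named, and a few others were chosen as examples after their values were seen. The genes and lists were chosen with earlier results of these data known. RCAN1 stands in both the calcineurin and the target list. Alternatives were a fold of at least 4, a score of at least 100, equal list lengths, a length of at least 50 bases, overlap by at least 50% of the shorter site, and leaving out each replicate.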

Additional observations from a re-analysis of the deposited data

How the results depend on the processing

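The difference of KO minus WT stayed at 3.5 to 6 sites per list for the NFI genes and at 2 to 2.5 for the NFAT genes when 1 replicate was left out. The NFAT difference of 2.33 was 1.67 among sites with a score of at least 100. NFIC was the only gene to change sign, to -0.333 sites without KO replicate 3 and without WT replicate 3, in a range of -0.333 to 1.17 over the lists left out. NFIB had a difference of 4.67 with equal list lengths and with a score of at least 100, and NFATC3 of 0 with a score of at least 100. NFIX, at -0.667, was 0 with a score of at least 100, -0.333 with a fold of at least 4 and -1.17 to -0.167 when 1 replicate was left out. Counts of KO-only regions were 11 to 13, of WT-only regions 4 to 5 and of regions in all lists 5 when 1 replicate was left out. Leaving a list out loosens the rule for such regions, so stable or higher counts say little about dependence on single replicates. The cause of these changes was not tested beyond the sites each setting removes. In the replicate block, the differences between lists of equal number were 4, 2 and 9 sites for the NFI genes (mean 5) and 3, 2 and 2 for the NFAT genes (mean 2.33). The numbers only name the lists: over all genes, deviations of lists of equal number correlated at -0.0847, 0.00292 and -0.0784. Depth is unknown, so a missing site does not show that ac4C was absent.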
